A study of Mus musculus with 6 samples.

Results

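The genes of cholesterol synthesis and transport were examined in the inguinal adipose tissue (iAT) of mouse pups. The set was taken by gene symbol and holds 28 of the 19831 genes listed: 8 genes of the mevalonate pathway, 11 of sterol synthesis, 5 of sterol sensing and delivery, and 4 of cholesterol efflux. The study compared 2 genotypes, wild-type mice and Npffr1-KO mice, which lack *Npffr1* and so a receptor of neuropeptide FF, with 3 samples each. All 6 samples came from whole iAT at postnatal day 6 of animals kept under specific-pathogen-free conditions, and RNA was extracted with TRIzol. The labels give no strain, sex, litter or kind of knockout allele, and do not say whether each sample was 1 animal, so that p-values measure the spread between these samples. The question asked here was how this pathway was expressed in young iAT and whether its transcript levels differed when *Npffr1* was missing.

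Cholesterol is made from acetyl-CoA. The mevalonate pathway builds isoprenoid units and joins them to farnesyl diphosphate, and the later enzymes turn this into squalene, lanosterol and cholesterol. The pathway is governed by SREBP2, the product of *Srebf2*, a transcription factor held in the endoplasmic reticulum. When sterols are scarce, SCAP carries SREBP2 to the Golgi apparatus, where it is cut and released to the nucleus, and the INSIG proteins keep SCAP in place when sterols are plentiful. Surplus cholesterol is exported by ABCA1 and ABCG1, whose genes are switched on by the oxysterol receptors LXR-alpha (*Nr1h3*) and LXR-beta (*Nr1h2*). Adipose tissue is a large store of free cholesterol, and *Insig1*, first known as an insulin-induced gene, is expressed in fat.

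The deposited table gives 1 value per gene and genotype, and the reads of each library were worked back from it for 18916 genes, among them all 28 genes of the set. The libraries are called A, B and C (wild-type) and D, E and F (Npffr1-KO), because they could not be tied to the sample numbers in the labels. Each held 11705006 to 12819591 reads in these genes, which make up 53.0% of the normalized reads, and size factors lay between 0.916 and 1.038. The depth of the whole libraries is unknown. *Npffr1* itself had 1, 0 and 5 reads in libraries A, B and C and 0 in each Npffr1-KO library, a level too low to check the genotype closely. None of the 381 genes with a mean above 8000 was recovered. Values per library are normalized reads, which are reads divided by the size factor of the library.

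SREBP2 binds sterol regulatory elements, usually beside sites of the general factors NF-Y and Sp1. RefSeq promoter sequences of build GRCm38.p6, from 250 bases before to 50 bases after the transcription start, were found for 23 of the 28 genes. No sequence is shown for *Abcg1*, *Fdft1*, *Fdps*, *Sqle* and *Stard4*. The letters CCAAT, the core of an NF-Y site, were present on either strand in the promoters of 18 of the 23 genes, and in 37.4% of all 32851 promoters. Here and for the next motifs, a gene was counted if any of its promoters matched, and these 23 genes have 30 promoters. The percentages count single promoters, so that the 2 measures are not alike. The letters GGGCGG, the core of an Sp1 site, were present for 19 genes and in 35.7% of all promoters. The E-box CACGTG was present for 6 genes (*Abca1*, *Dhcr7*, *Hsd17b7*, *Insig1*, *Sc5d* and *Scap*) and in 7.15% of all promoters. The sterol element core TCACNCCAC was present in the *Hmgcs1* promoter only among these genes, and in 1.24% of all promoters. The motifs were searched on both strands, and motif matches were not filtered for overlap with each other. These promoters are rich in G and C, with a median of 61.8% over the 30 promoters of the set and 52.7% over all promoters. The promoters below belong to the most abundant enzyme gene and to the pair of genes with the lowest adjusted p between genotypes. They are *Hmgcs1* at chr13:119690101-119690400 on the plus strand, *Insig1* at chr5:28071162-28071461 on the plus strand, and *Sc5d* at chr9:42264251-42264550 on the minus strand, each written 5′ to 3′ along its gene with matches to the motifs in capitals.
*Hmgcs1*: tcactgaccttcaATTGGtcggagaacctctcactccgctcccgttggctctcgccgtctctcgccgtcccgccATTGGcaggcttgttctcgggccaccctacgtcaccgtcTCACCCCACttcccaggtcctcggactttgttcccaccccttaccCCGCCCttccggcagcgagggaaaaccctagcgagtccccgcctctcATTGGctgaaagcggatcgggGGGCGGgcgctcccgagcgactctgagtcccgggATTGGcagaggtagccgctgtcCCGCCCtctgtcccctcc
*Insig1*: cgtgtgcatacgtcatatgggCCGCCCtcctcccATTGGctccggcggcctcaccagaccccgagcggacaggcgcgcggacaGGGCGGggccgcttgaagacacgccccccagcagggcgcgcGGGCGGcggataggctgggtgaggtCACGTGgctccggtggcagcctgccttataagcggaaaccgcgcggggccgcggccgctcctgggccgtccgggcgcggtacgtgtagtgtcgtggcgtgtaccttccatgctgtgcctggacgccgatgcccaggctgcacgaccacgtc
*Sc5d*: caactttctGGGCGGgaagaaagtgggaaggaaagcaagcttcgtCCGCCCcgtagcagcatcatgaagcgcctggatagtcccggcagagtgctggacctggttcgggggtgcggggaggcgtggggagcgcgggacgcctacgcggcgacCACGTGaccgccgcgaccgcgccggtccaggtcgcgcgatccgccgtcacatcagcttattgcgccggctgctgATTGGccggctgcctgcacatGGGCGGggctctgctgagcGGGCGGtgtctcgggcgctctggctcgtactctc

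The *Hmgcs1* promoter holds 4 CCAAT matches, all on the reverse strand, and 1 sterol element core, which begins 137 bases before the start. The *Insig1* and *Sc5d* promoters each hold 1 CCAAT match and 1 E-box, and the E-boxes begin 101 and 98 bases before the start. A match describes letters and not a bound site. A missing match does not show that a gene lacks a sterol regulatory element, because other letters and other positions were not searched.

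All 28 genes were expressed in wild-type iAT. Levels of different genes were compared as normalized reads per kilobase of the deposited gene length, over the 3 wild-type libraries. *Hmgcs1*, which makes HMG-CoA, was the highest of the set at 1873 ± 341 (SD, n = 3) normalized reads per kilobase. It was followed by *Nr1h2* at 1213 ± 11.1, *Insig1* at 1040 ± 305 and *Nr1h3* at 901 ± 32.1. The wild-type libraries of *Nr1h2* and *Insig1* overlapped, as did those of *Insig1* and *Nr1h3*, so that the place of *Insig1* was not resolved, while the *Nr1h2* libraries all lay above those of *Nr1h3*. *Fdps* (farnesyl diphosphate synthase) came next at 600 ± 102, below all libraries of *Nr1h3*. From *Fdps* down to *Scap*, 14 genes formed a continuous range from 600 to 332 normalized reads per kilobase in which each gene overlapped the next. The lowest were *Lss* at 81.3 ± 6.85, *Stard4* at 72.2 ± 7.86 and *Hsd17b7* at 40.5 ± 1.98, with *Hsd17b7* below all libraries of *Stard4*. In all, 20 of the 27 neighbours in this order overlapped. The mean of the highest gene was 46.2 times that of the lowest. Without division by length, 25 of the 28 genes had a wild-type value above that of the median gene in the table.

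**Figure D1:**
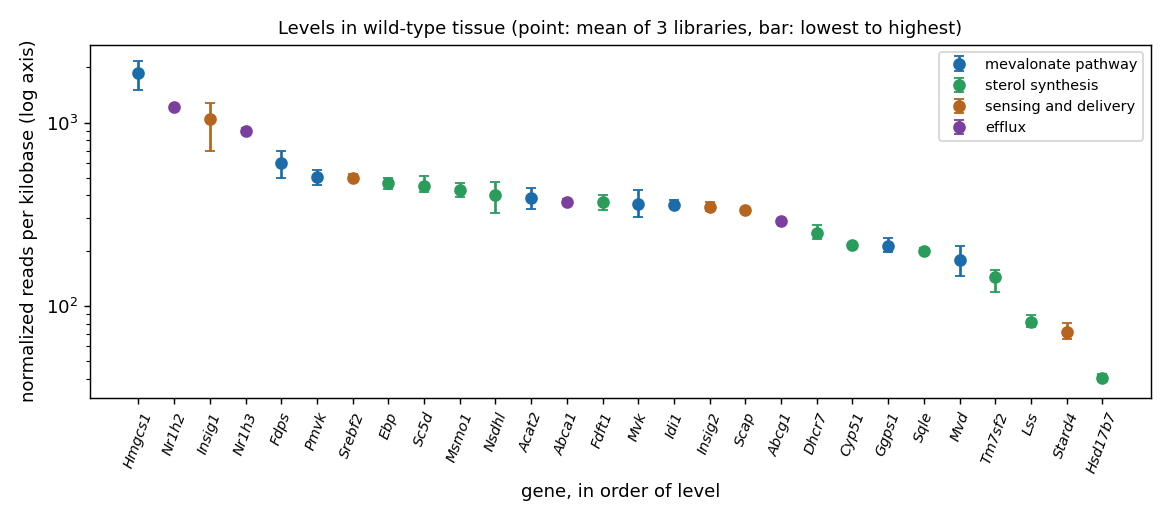
Levels of the 28 genes in wild-type iAT as normalized reads per kilobase on a log axis, each point the mean of 3 libraries and each bar the range from the lowest to the highest library, coloured by role. *Hmgcs1* stands highest at 1873 and *Hsd17b7* lowest at 40.5, and the genes from *Fdps* to *Scap* overlap in a chain.

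Between the genotypes, most synthesis genes had a higher mean in Npffr1-KO, but no gene of the set passed the test over all genes. The mean log2 value of Npffr1-KO was above that of wild-type for 16 of the 19 enzyme genes, 7 of 8 in the mevalonate pathway and 9 of 11 in sterol synthesis, and for 3 of 5 genes of sensing and delivery and 1 of 4 efflux genes. Over all genes tested this held for 7174 of 14394. The median log2 difference was 0.26 over the 19 enzymes, 0.05 over the sensing and delivery genes and -0.08 over the efflux genes, beside a median of -0.001 over all 14394 genes tested. In limma on log2(normalized reads + 1), 0 of the 28 genes had an adjusted p under 0.05, while 0.313% of all genes tested passed as higher in Npffr1-KO and 0.354% as lower. At an unadjusted p under 0.05, 9 of the 28 genes were higher in Npffr1-KO and 0 were lower, and the background was 10.1% of all genes tested for higher and 9.93% for lower. These 9 were *Pmvk*, *Mvd*, *Fdps*, *Fdft1*, *Cyp51*, *Ebp*, *Sc5d*, *Dhcr7* and *Insig1*. Without wild-type library B, 4 of the 28 genes were under 0.05, all higher in Npffr1-KO, beside 5.13% of all genes tested for higher and 5.54% for lower. With weights from voom it was 10 genes, 9 of them higher, beside 9.89% and 9.96%.

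The libraries of the 2 genotypes did not overlap for 15 of the 28 genes, 13 with Npffr1-KO higher and 2 with Npffr1-KO lower. Over all genes tested this held for 12.4% as higher and 13.1% as lower. Of the 19 enzymes, 11 had all Npffr1-KO libraries above all wild-type libraries, and 0 had them below. With 3 libraries each, an exact two-sided permutation test of a single gene cannot go below 0.10, and these 15 genes reached that value. By the deposited values, 11 of the 28 genes were at least 1.2-fold higher in Npffr1-KO and 0 were at least 1.2-fold lower, beside 16.8% and 15.6% of those genes of the table whose mean was 10 or more. The median log2 ratio of these values was 0.14 over the set and 0.01 over all genes with that mean. When each log2 ratio was centred on genes of like length, 6 genes were past 1.2-fold, all higher, beside 11.7% of all genes with that mean for higher and 15.2% for lower.

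**Figure D2:**
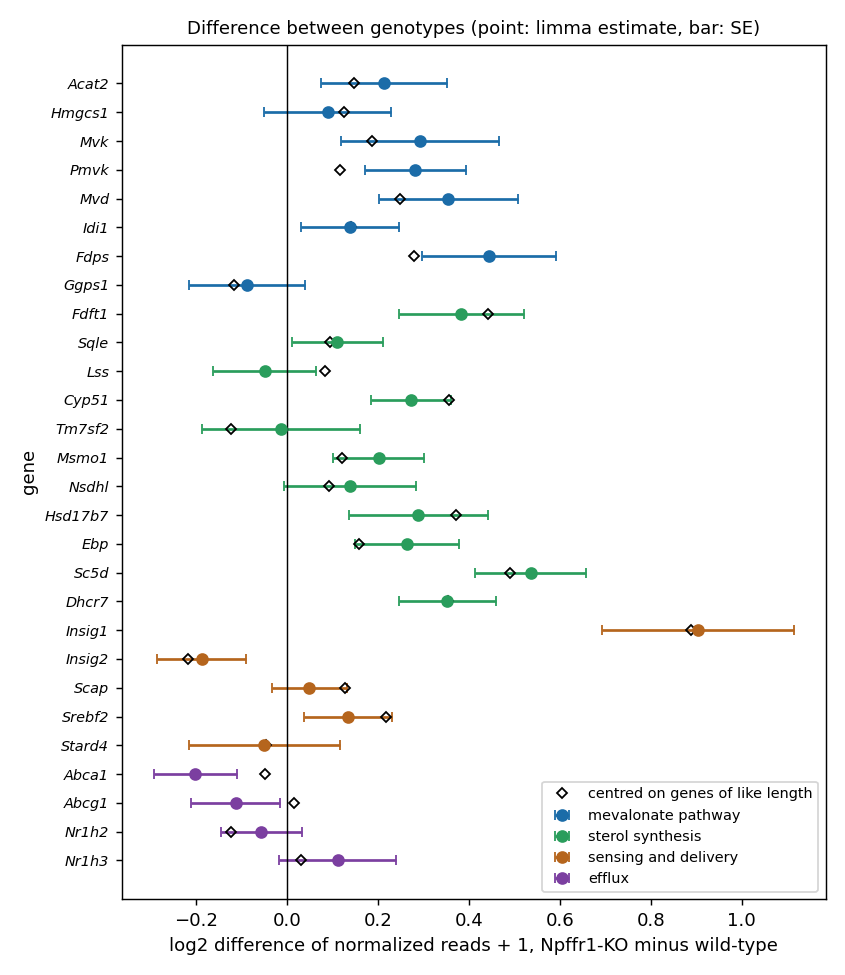
Log2 difference of normalized reads + 1, Npffr1-KO minus wild-type, for the 28 genes in pathway order, with points for limma estimates, bars for their SE, colours for roles and open diamonds for values centred on genes of like length. *Insig1* stands apart at 0.90, most enzymes lie right of 0, and of the efflux genes *Abca1* lies farthest left at -0.20.

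The largest difference of the set was in sterol sensing. *Insig1*, which holds SCAP and SREBP2 in the endoplasmic reticulum, had 3419, 1861 and 3043 normalized reads in libraries A, B and C, and 4125, 6035 and 5088 in D, E and F. Every Npffr1-KO library lay above every wild-type library, and library B was the lowest by a wide margin. The means were 2774 ± 813 in wild-type and 5082 ± 955 in Npffr1-KO (SD, n = 3). The limma log2 difference was 0.90, or 1.87-fold, with an SE of 0.21 and an adjusted p of 0.072, which missed 0.05. It was 0.64 without library B, with an adjusted p of 0.26, and over all alternatives the adjusted p ranged from 0.064 to 0.26. *Insig2*, the second INSIG gene, had a lower mean in Npffr1-KO. It had 842, 922 and 826 normalized reads in libraries A, B and C and 714, 791 and 768 in D, E and F, without overlap, and its log2 difference was -0.19 (SE 0.10, adjusted p 0.31).

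The ratio of *Insig1* to *Insig2* within a library does not depend on the size factors. Libraries A, B and C gave 4.06, 2.02 and 3.69, and libraries D, E and F gave 5.78, 7.63 and 6.62. The mean ratio of Npffr1-KO was 1.09 higher on the log2 scale, or 2.13-fold. The pair was chosen after its values were seen, and since neither gene overlapped between genotypes the ratios had to separate, so that no test is given.

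The other genes of this group had smaller differences. *Scap*, the SREBP escort, had 1378, 1353 and 1400 normalized reads in wild-type and 1417, 1422 and 1439 in Npffr1-KO. Its libraries did not overlap, but the log2 difference was 0.05 (SE 0.08, adjusted p 0.77), smaller than its SE. *Srebf2* ranged from 2212 to 2401 in wild-type and from 2244 to 2681 in Npffr1-KO, with overlap and a log2 difference of 0.14 (SE 0.10, adjusted p 0.45). *Stard4*, a cytosolic sterol carrier, ranged from 196.5 to 242 in wild-type and from 176 to 236 in Npffr1-KO, with a log2 difference of -0.05 (SE 0.16).

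**Figure D3:**
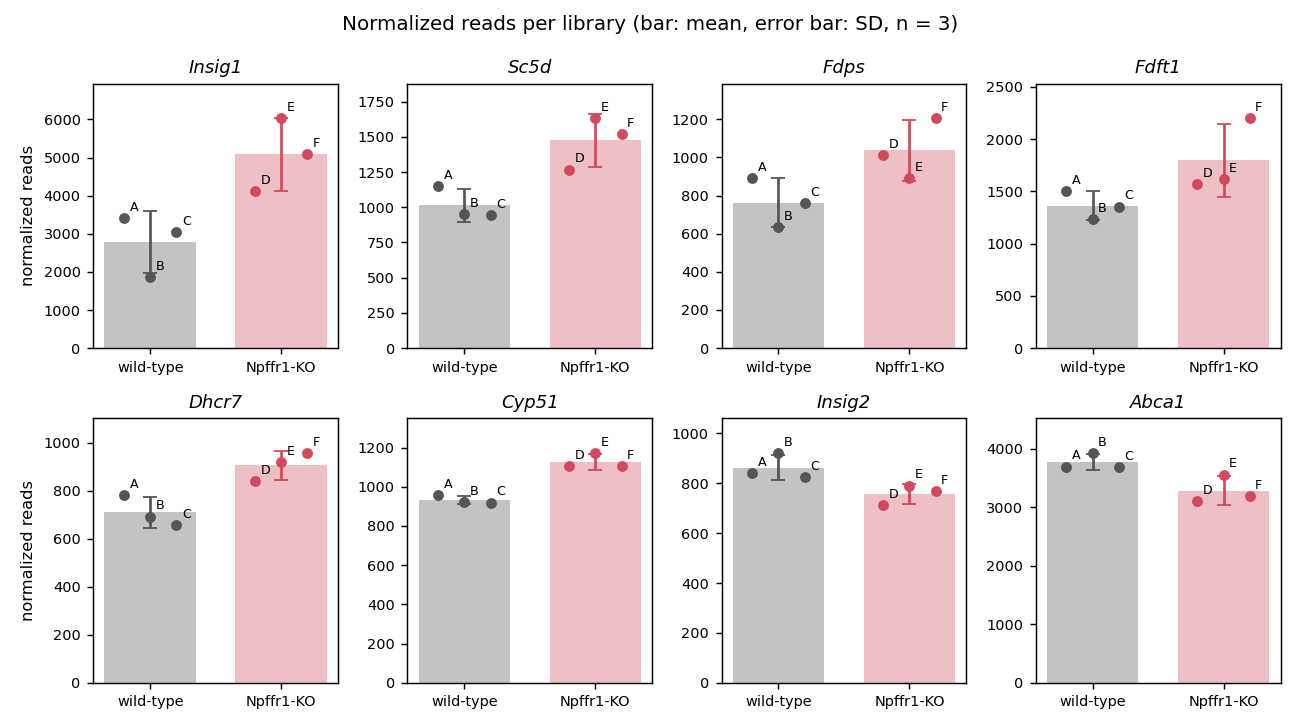
Normalized reads of 8 genes in each library, with points for libraries A to F, bars for the mean and error bars for the SD (n = 3 for each genotype), and axes starting at 0. *Insig1*, *Sc5d*, *Fdps*, *Fdft1*, *Dhcr7* and *Cyp51* have all Npffr1-KO points above the wild-type points, and *Insig2* and *Abca1* have them below.

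In the mevalonate pathway, 3 of the 8 genes had all Npffr1-KO libraries above all wild-type libraries, which held for 12.4% of all genes tested. *Hmgcs1* had 7655, 6830 and 5290 normalized reads in wild-type and 6435, 7804 and 6637 in Npffr1-KO. These ranges overlapped, and the log2 difference was 0.09 (SE 0.14). *Fdps* had 892, 634 and 762 normalized reads in wild-type and 1011, 893 and 1206 in Npffr1-KO. Its lowest Npffr1-KO library (E) and highest wild-type library (A) differed by less than 1 read after normalization, and the log2 difference was 0.44 (SE 0.15, adjusted p 0.15). *Pmvk* (phosphomevalonate kinase) had 659, 545 and 611 normalized reads in wild-type and 686, 727 and 793 in Npffr1-KO, with a log2 difference of 0.28 (SE 0.11) that was 0.12 when libraries were centred on genes of like length. *Mvd* (mevalonate diphosphate decarboxylase) had 378, 315 and 256 in wild-type and 426, 388.5 and 386 in Npffr1-KO, with a log2 difference of 0.36 (SE 0.15) that was 0.21 without library C. Neither gene overlapped between genotypes, and their adjusted p-values were 0.20 and 0.23.

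The other genes of the mevalonate pathway overlapped between genotypes. *Mvk* (mevalonate kinase) had a log2 difference of 0.29 (SE 0.17), *Acat2* (acetoacetyl-CoA thiolase) 0.21 (SE 0.14) and *Idi1* (isopentenyl diphosphate isomerase) 0.14 (SE 0.11). Without library F the difference was 0.13 for *Mvk* and 0.11 for *Acat2*, and without library D it was 0.045 for *Idi1*. *Ggps1*, which leads to geranylgeranyl diphosphate and away from sterols, was the 1 gene of this group with a lower mean in Npffr1-KO. It ranged from 468 to 562 normalized reads in wild-type and from 418 to 523 in Npffr1-KO, with a log2 difference of -0.09 (SE 0.13). Of the words of 31 bases in the annotated transcripts, 43.7% of *Acat2* were shared with *Acat3*, 27.9% of *Fdps* and 18.8% of *Idi1* with other genes, mostly predicted ones, so that their reads may have been divided among these copies. For *Ggps1* and *Tm7sf2* the shares were 10.3% and 12.9%.

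In sterol synthesis, *Sc5d*, which sets the C5 double bond of the sterol ring, had the lowest adjusted p of the set. It had 1151, 950 and 944 normalized reads in wild-type and 1267, 1633 and 1522 in Npffr1-KO. All Npffr1-KO libraries were above the wild-type libraries, with means of 1015 ± 118 and 1474 ± 188 (SD, n = 3), a 1.45-fold difference. The log2 difference was 0.54 (SE 0.12), with an adjusted p of 0.068 that ranged from 0.066 to 0.32 over the alternatives. The next gene of the route is *Dhcr7*, which makes cholesterol in the last step of the Kandutsch-Russell branch. It had 781, 692 and 656 normalized reads in wild-type and 840, 918 and 958 in Npffr1-KO, without overlap, and a log2 difference of 0.35 (SE 0.11, adjusted p 0.12).

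*Fdft1* (squalene synthase), the first committed step to sterols, had 1505, 1236 and 1354 normalized reads in wild-type and 1569, 1621 and 2202 in Npffr1-KO. The groups did not overlap, library F was far above the others, and the log2 difference was 0.38 (SE 0.14, adjusted p 0.17), and 0.23 without library F (adjusted p 0.26). Of its 31-base words 14.3% were shared with a predicted gene. Exons of *Fdft1* and *Cyp51* also overlap exons of *Ctsb* and *Akap9* on the opposite strand, and the strand setting of the libraries is not given in the sources used here. *Cyp51* (lanosterol demethylase) had closely spaced libraries, 956, 920 and 919 normalized reads in wild-type and 1103, 1173 and 1104 in Npffr1-KO. Its log2 difference was 0.27 (SE 0.09, adjusted p 0.14), and 0.059 was the adjusted p when each library was centred on genes of like length, with a range of 0.059 to 0.45 over the alternatives.

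*Ebp* (sterol isomerase) ranged from 762 to 875 normalized reads in wild-type and from 907 to 1145 in Npffr1-KO. *Msmo1* (sterol methyl oxidase) ranged from 713 to 849 and from 883 to 929, and *Hsd17b7* (3-ketosteroid reductase) from 177 to 195 and from 195 to 248. None of these 3 genes overlapped, with log2 differences of 0.26, 0.20 and 0.29, though the *Hsd17b7* ranges met within 1 normalized read. The difference was 0.16 for *Ebp* without library F and 0.13 for *Msmo1* without library C, and it was 0.16 and 0.12 with centring on genes of like length. *Sqle* (squalene epoxidase), a rate-limiting enzyme, ranged from 526 to 569 and from 569 to 602, likewise within 1 normalized read of overlap, with a log2 difference of 0.11 (SE 0.10). *Nsdhl* (sterol decarboxylase) overlapped, with 0.14 (SE 0.14). *Lss* (lanosterol synthase) and *Tm7sf2* (C14 sterol reductase) overlapped with log2 differences of -0.05 (SE 0.11) and -0.01 (SE 0.17). Along the route the log2 differences were near 0 at *Hmgcs1*, *Lss* and *Tm7sf2* and above 0.3 at *Mvd*, *Fdps*, *Fdft1*, *Sc5d* and *Dhcr7*. With centring on genes of like length, *Fdps* was at 0.28 and *Mvd* at 0.25, and *Cyp51* and *Hsd17b7* were at 0.36 and 0.37. Differences between these genes were not tested.

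Of the 4 efflux genes, 3 had a lower mean in Npffr1-KO. *Abca1*, the exporter that loads cholesterol onto apolipoprotein A-I, had 3695, 3930 and 3691 normalized reads in wild-type and 3101, 3558 and 3194 in Npffr1-KO. All Npffr1-KO libraries were lower, with means of 3772 ± 137 and 3284 ± 242 (SD, n = 3) and a log2 difference of -0.20 (SE 0.09, adjusted p 0.25). *Abca1* is the longest gene of the set, at 10260 bases, and its log2 difference was -0.05 when libraries were centred on genes of like length. *Abcg1*, an exporter to HDL particles, ranged from 1656 to 1729 in wild-type and from 1411 to 1735 in Npffr1-KO, with a log2 difference of -0.11 (SE 0.10) that turned to 0.02 with the same centring. *Nr1h2* ranged from 2424 to 2468 and from 2210 to 2548, with a log2 difference of -0.06 (SE 0.09). *Nr1h3* had 1700, 1589 and 1614 normalized reads in wild-type and 1576, 1596 and 2190 in Npffr1-KO, with library F far above the others. Its log2 difference was 0.11 (SE 0.13), and -0.04 without library F.

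The libraries of a genotype did not all look alike. The median of the 19 enzymes, each as log2(normalized reads + 1) minus its mean over 6 libraries, was -0.02, -0.21 and -0.15 in libraries A, B and C, and 0.07, 0.05 and 0.21 in D, E and F. For all genes tested this median lay between -0.004 and 0.002 in each library. Wild-type library A thus lay nearest to the Npffr1-KO libraries. Of the 19 enzymes, 8, 2 and 4 were above their own mean in libraries A, B and C, and 14, 14 and 16 in D, E and F. The summed normalized reads of the enzymes, to which *Hmgcs1* contributes most, did overlap, with 21293, 18565 and 17801 in wild-type and 21002, 22395 and 23035 in Npffr1-KO.

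**Figure D4:**
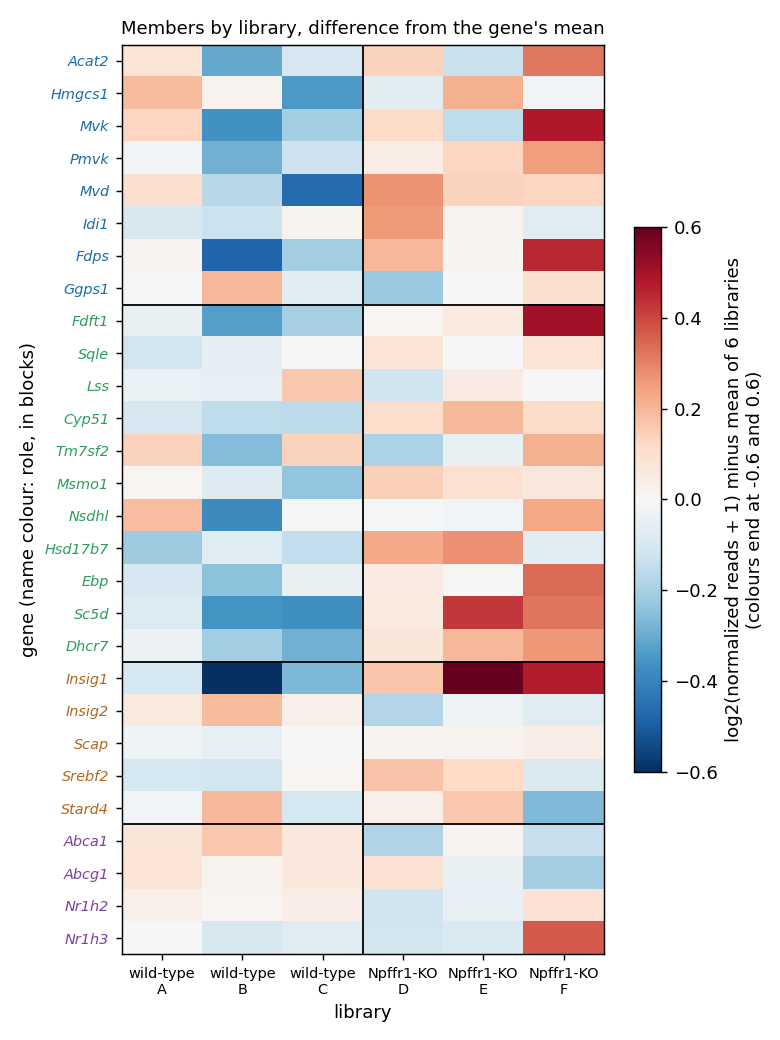
Log2(normalized reads + 1) of each gene minus its mean over the 6 libraries, with genes in rows by role, libraries in columns and colours ending at -0.6 and 0.6. Blue is frequent for enzymes in libraries B and C and red in F, *Insig1* goes from dark blue in B to dark red in E, and *Insig2* and *Abca1* have higher values in the wild-type libraries.

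Of 46 other genes of sterol handling, 0 of the 42 tested passed in limma, and 3 were higher and 3 lower at an unadjusted p under 0.05, which are smaller shares than the 10.1% and 9.93% over all genes tested. Their median log2 ratio was -0.004 by the deposited values. Of the 12 genes of SREBP processing and sterol sensing in this list, 0 were past 1.2-fold. The 6 genes past 1.2-fold were divided evenly, again with smaller shares than the 16.8% and 15.6% over all genes. *Vldlr*, a lipoprotein receptor, had 1385, 1280 and 1347 normalized reads in wild-type and 1617, 1578 and 1950 in Npffr1-KO, with a log2 difference of 0.35 (SE 0.10, adjusted p 0.11). *Pltp*, a phospholipid transfer protein and LXR target, and *Soat1*, which esterifies cholesterol for storage, had log2 differences of 0.39 (SE 0.14) and 0.29 (SE 0.12). Lower in Npffr1-KO were *Cyp7b1*, an oxysterol hydroxylase, at -0.74 (SE 0.20, adjusted p 0.10), and *Gramd1b*, a sterol carrier between membranes, at -0.50 (SE 0.18). *Scarb1*, the HDL receptor, was not recovered per library, and its deposited values were 9073 in wild-type and 7125 in Npffr1-KO.

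Whole tissue was measured, in which fewer cells of a type and less RNA per cell cannot be told apart. Markers of several cell types differed between genotypes. Of the adipocyte markers, 2 of 8 were recovered, *Pparg* and *Lep*, and their sum ranged from 7151 to 9144 normalized reads in wild-type and from 12153 to 15721 in Npffr1-KO. *Lep* rose, with a log2 difference of 1.08 (SE 0.13, adjusted p 0.0066), and missed the threshold without wild-type library B (adjusted p 0.056). The deposited values of *Fabp4*, *Adipoq* and *Lipe*, the most abundant adipocyte markers, were 156285, 37027 and 25413 in wild-type and 173188, 35360 and 25885 in Npffr1-KO. The thermogenic markers *Cox8b*, *Cidea* and *Ucp1* had deposited values of 460, 304 and 438 in wild-type and 1567, 1427 and 1287 in Npffr1-KO, and were not recovered per library. At such means most genes were recovered, 99.1% from 25 to 1000 and 99.2% from 1000 to 3000. The search reached only combinations within a set distance of the genotype values, so that genes with a wide spread between libraries can be missed. Whether this held for the 3 thermogenic genes was not tested, and their spread within a genotype is unknown. The recovered thermogenic markers (3 of 6) overlapped, with sums of 126 to 204 normalized reads in wild-type and 189 to 392 in Npffr1-KO. The summed T cell markers (4 of 4 recovered) ranged from 3868 to 4598 in wild-type and from 6082 to 7112 in Npffr1-KO, and 3 of these 4 genes passed in limma as higher. *Lck* rose by 0.75 on the log2 scale (adjusted p 0.016), *Cd3g* by 0.79 (adjusted p 0.042) and *Cd3e* by 0.66 (adjusted p 0.045), and *Cd247* had an adjusted p of 0.058. None of these 3 T cell genes passed without library A, B or D, and without B their adjusted p-values were 0.12 for *Lck* and 0.21 for *Cd3g* and *Cd3e*. *Cd3g* and *Cd3e* also missed the threshold without C, *Cd3g* without F, and *Cd3e* with length centring. The recovered endothelial markers (2 of 4, *Kdr* and *Tek*) summed to 8712 to 11053 in wild-type and 6424 to 8028 in Npffr1-KO, and the deposited values of *Cdh5* and *Pecam1* were 23029 and 18487 in wild-type and 17863 and 15218 in Npffr1-KO. The sums of the recovered macrophage, progenitor, B cell, keratinocyte, sebocyte, epithelium, Schwann cell and erythroid markers overlapped between genotypes, and those of keratinocytes, sebocytes and epithelium did not exceed 217 normalized reads in any library. Skeletal muscle markers were not recovered, and their deposited values summed to 353 and 698. The part of these markers in the differences above was not tested.

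The ratio between genotypes also moved with gene length. In 20 classes of length, the median log2 ratio of the deposited values went from 0.27 in the shortest genes to -0.15 in the longest. The 19 enzymes had a median length of 2249 bases and the 4 efflux genes one of 3919, beside 2785 for all genes whose mean was 10 or more. When centred on genes of like length, the median log2 ratio was 0.14 for the enzymes, compared with 0.26 uncentred, and -0.02 for the efflux genes, compared with -0.08. With the libraries centred in this way, limma passed 0 of the 28 genes, and 22 of them had a higher mean in Npffr1-KO. The share of all genes with a higher mean was not counted in this setting, and their median log2 difference was 0.001.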

How the data were processed

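Whole iAT of 3 wild-type and 3 Npffr1-KO samples was sequenced, and groups were taken from the labels. Bowtie2, RSEM and DESeq2 are listed in the submitters' processing notes, without versions. The genome build is not given in the sources used here. The deposited table holds 1 signal value per gene and genotype, made by the authors from read counts scaled to library size. The ratio of the 2 values is shrunken towards 1, more so for genes with few reads or a wide spread between libraries. The table also gives a length for each gene. Its columns of fold changes, p-values and direction of change, and a second, shorter table, hold the authors' own comparison and were not used.

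The mean of the 2 genotype values is a sum of whole reads divided by size factors. These factors, and the genotype of each library, came from 585 genes with a single read, and libraries could not be tied to sample numbers. Combinations of whole reads that gave the mean were searched, exhaustively below a mean of 25 and up to 5000 for all genes (8000 for listed genes). From a mean of 25 on, only combinations within a set distance of the genotype values and a set range of shrinkage were searched. Relative to the mean, this distance was smaller at high means. Genes with a wide spread between libraries could thus be missed. Above a mean of 25 a combination was kept if a negative binomial model with shrinkage, fitted to 2189 genes, also gave the ratio of the 2 values. Over the 28 genes the largest error of the log2 ratio was 6.45e-12. As RSEM gives estimated counts, the reads are rounded estimates. The search and the test below were tested on simulated data.

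Log2(normalized reads + 1) of 14394 genes with a mean of at least 10 was tested with limma 3.58.1 in R 4.3.3 (intensity trend, Benjamini-Hochberg adjustment over all genes, threshold 0.05). Ratios of the deposited values were called at 1.2-fold. Copies were searched in GENCODE M21 transcripts, and promoters came from RefSeq. Python 3.11.15, NumPy 2.4.6, SciPy 1.17.1 and numba 0.67.0 were used.

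The 28 genes and all lists were chosen with earlier results of these data known. All 28 are named. Of the other sterol genes those past 1.2-fold or the limma threshold with a mean of at least 10 are named, up to 12, and of each marker list at most the 3 with the highest mean. *Pparg*, *Lep*, *Cd3e* and *Tek* were named outside this rule after their values were seen. Alternatives were other pseudocounts, thresholds and filters, voom weights, centring, and leaving out each library. Centring libraries on genes of like length in limma was chosen after seeing the data.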

Additional observations from a re-analysis of the deposited data

How the results depend on the processing

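No paired analysis was possible because the labels give no pairing of samples, and the recovered libraries carry no sample numbers. In limma, 0 of the 28 genes passed 0.05 in any of the 12 settings, among them leaving out each library (0 to 0). The number with an unadjusted p under 0.05 ranged from 4 (without wild-type library B, with 10.7% of all genes tested) to 10 (with voom and without Npffr1-KO library E, with 19.9% and 24.9%). The count of all genes passed, 45 higher and 51 lower, ranged from 8 and 8 without library B to 246 and 298 without Npffr1-KO library E; it was 11 and 7 without A, 25 and 8 without C, 10 and 10 without D, 69 and 75 with length centring, and 30 and 43 with voom. The count past 1.2-fold was 11, all higher, beside 16.8% of all genes for higher and 15.6% for lower. It was 6 when centred on genes of like length, beside 11.7% and 15.2%. At a threshold of 1.5-fold it was 1, *Insig1*, and the share of all genes at that threshold was not counted. The median log2 ratio of the set, 0.14, was 0.24 for the mevalonate pathway alone, 0.26 for sterol synthesis, 0.05 for sensing and delivery, and -0.079 for efflux, the 1 group in which it reversed. Ranked without division by length, 5 of the 10 highest genes were shared with the ranking per kilobase. Of 308 values of single genes under an alternative, 294 kept their direction and 14 in 8 genes did not, the adjusted p of these genes being at least 0.37 under every setting (lowest for *Nsdhl*). Length centring turned *Lss* to 0.085 and *Abcg1* to 0.015. Leaving out 1 library gave ranges of -0.061 to 0.206 for *Hmgcs1*, -0.156 to 0.004 for *Ggps1*, -0.085 to 0.021 for *Lss*, -0.145 to 0.079 for *Tm7sf2*, -0.018 to 0.266 for *Nsdhl*, -0.141 to 0.072 for *Stard4* and -0.043 to 0.194 for *Nr1h3*. The causes were not tested. With 3 libraries each, differences of the size seen for most enzymes, 0.1 to 0.4 with SE of 0.09 to 0.17, could not be told from 0 after adjustment over all genes.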
